A study of Solanum lycopersicum with 12 samples.

Results

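The 9 genes described here are abscisic acid (ABA) receptor genes of tomato, of the family named PYR/PYL or RCAR. They were taken as a list of locus identifiers, and all 9 of the 9 were found among the 33976 genes of the deposited leaf transcriptome. The list was taken as a gene family and not by any measured level, although it was chosen with earlier results of these data known. Nothing here shows that it holds every receptor gene of tomato. The identifiers are not paired with subfamily names or sequences in the sources used here, so each gene is called by its identifier, in which the number after "Solyc" is the chromosome: chromosome 6 for Solyc06g061180 and Solyc06g050500, chromosome 8 for Solyc08g076960 and Solyc08g082180, and chromosomes 1, 3, 9, 10 and 12 for the others.

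ABA is the hormone that plants make when water runs short. Its PYR/PYL receptors are small soluble proteins which, once ABA sits in their pocket, bind and block clade A type 2C protein phosphatases. The SnRK2 kinases that these phosphatases hold inactive are then free to phosphorylate transcription factors of ABA-responsive genes and, in guard cells, the ion channels that close the stomatal pore. This chain was worked out in Arabidopsis. There, the paper describes *AtMYB60* as a guard cell transcription factor that joins the responses to ABA, light and water stress. For tomato the paper reports a divergent function and proposes a broad role of *SlMYB60* in the cuticle. It found the *SlMYB60* promoter active beyond guard cells, and stomatal opening was not reduced in the edited lines. The question put to the data was whether editing the tomato counterpart *SlMYB60* came with a change in the receptor transcripts.

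Leaf RNA came from 12 libraries, 4 each of the wild type (cultivar Red Setter) and of 2 edited lines in the same cultivar, *slmyb60Cr1* and *slmyb60Cr2*, which are homozygous for CRISPR/Cas9 deletions in *SlMYB60* and no longer carry Cas9. Each library pooled leaf discs of 4 plants, given in the methods as 6-week-old. The labels give the same treatment to all 12 libraries, a water stress with no irrigation for 14 days, whereas the methods of the paper mention no water deficit for the plants used for RNA. All groups share this treatment whichever holds, and no well-watered or ABA-treated group was available for comparison. The same treatment need not mean the same water state. The paper reports lower relative leaf water content in the edited lines, significant only in *slmyb60Cr2*, and faster water loss from their detached leaves. The water state of the leaves used for RNA is not given, so its part in the differences was not tested. Levels are in TPM (transcripts scaled by their length to a total of 1000000 per library), which allows levels of different genes to be compared. TPM holds no read numbers, so the depth behind single values and their counting error are unknown. The edited gene itself (Solyc10g081490) was at 12.9, 12.3, 19.3 and 21.6 TPM in wild type replicates 1 to 4. It was at 1.57, 2.10, 2.78 and 2.30 TPM in *slmyb60Cr1* and at 2.19, 2.61, 3.15 and 2.87 TPM in *slmyb60Cr2*. Every library thus fitted its label as wild type or edited. The 2 lines overlapped, so this gene cannot tell their labels apart.

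In wild type leaves the receptor genes spanned a 136-fold range of mean TPM, and 1 of them made up nearly as much as the rest. Solyc01g095700 stood at 227 ± 10.3 TPM (mean ± SD, n = 4), a level above that of 97.0% of the 21218 genes tested, and held 46.5% of the summed receptor TPM. Solyc06g061180 followed at 96.6 ± 4.43 TPM, a 2.35-fold lower level. Next came Solyc08g082180 at 62.4 ± 6.82 TPM and Solyc03g007310 at 51.01 ± 3.22 TPM. These 4 genes held 89.4% of the sum. Solyc06g050500 (18.9 ± 2.30 TPM) and Solyc08g076960 (17.7 ± 3.09 TPM) lay near the median gene, which had 15.2 TPM. The lowest were Solyc10g076410 at 7.14 ± 0.619 TPM, Solyc12g095970 at 6.41 ± 2.41 TPM and Solyc09g015380 at 1.67 ± 0.932 TPM, and only 14.0% of the tested genes had a lower wild type mean than the last.

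The order was partly unresolved. The library ranges of Solyc08g082180 and Solyc03g007310 overlapped in every genotype, as did those of Solyc06g050500 and Solyc08g076960 and those of Solyc10g076410 and Solyc12g095970. All other neighbours in the order were apart in every library of every genotype. Within these overlapping pairs the means changed places: Solyc12g095970 was above Solyc10g076410 in both edited lines, and Solyc08g076960 above Solyc06g050500 in *slmyb60Cr2*. The spread among wild type libraries was 4.52% to 6.30% of the mean in Solyc01g095700, Solyc06g061180 and Solyc03g007310, against 37.6% in Solyc12g095970 and 55.9% in Solyc09g015380.

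**Figure D1:**
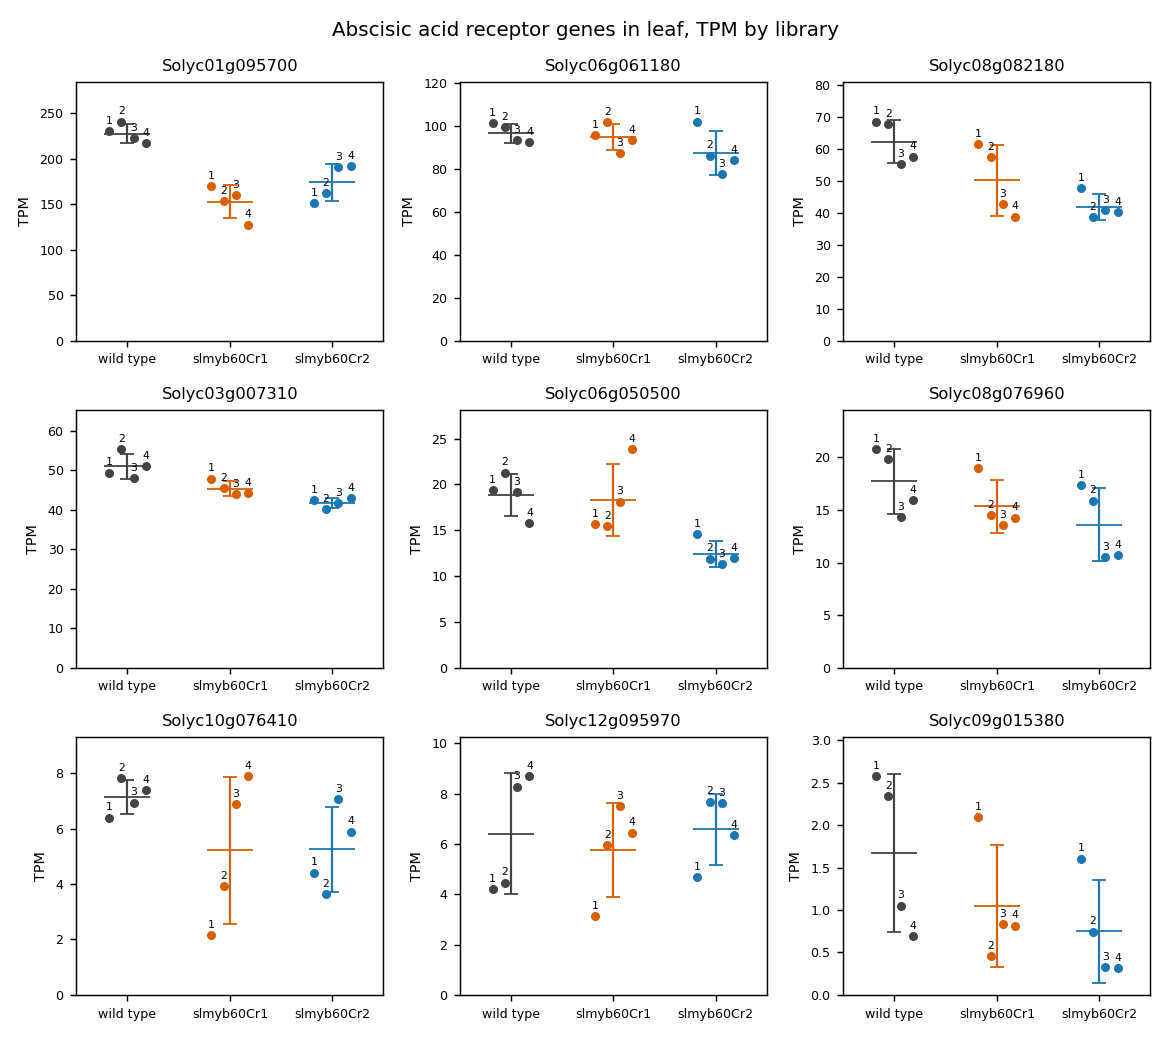
TPM of each receptor gene (vertical axes from 0) in the 12 libraries, with points numbered by replicate and bars for the mean ± SD of 4 libraries. All 4 wild type libraries of Solyc01g095700 lie at 217 TPM or above and all 8 edited libraries at 192 TPM or below, whereas the genotypes overlap in Solyc06g061180, Solyc08g076960, Solyc10g076410, Solyc12g095970 and Solyc09g015380.

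The summed TPM of the 9 genes was lower in both edited lines. It was 503, 519, 469 and 466 TPM in wild type replicates 1 to 4, then 417, 399, 380 and 357 TPM in *slmyb60Cr1* and 386, 367, 387 and 394 TPM in *slmyb60Cr2*. No edited library reached the lowest wild type library, and the line means were 79.4% and 78.4% of the wild type mean. The sum is given as a description without a test. Solyc01g095700 alone accounted for 74.3% of the difference in *slmyb60Cr1* and 50.8% in *slmyb60Cr2*. Without it, the other 8 genes summed to 262 ± 16.2 TPM in the wild type, 236 ± 12.7 TPM in *slmyb60Cr1* and 210 ± 17.0 TPM in *slmyb60Cr2* (mean ± SD, n = 4 each). The share of Solyc01g095700 was thus 39.3% in *slmyb60Cr1* and 45.3% in *slmyb60Cr2*. In bulk leaf RNA, less transcript per cell and fewer of the cells that express a gene cannot be told apart.

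**Figure D2:**
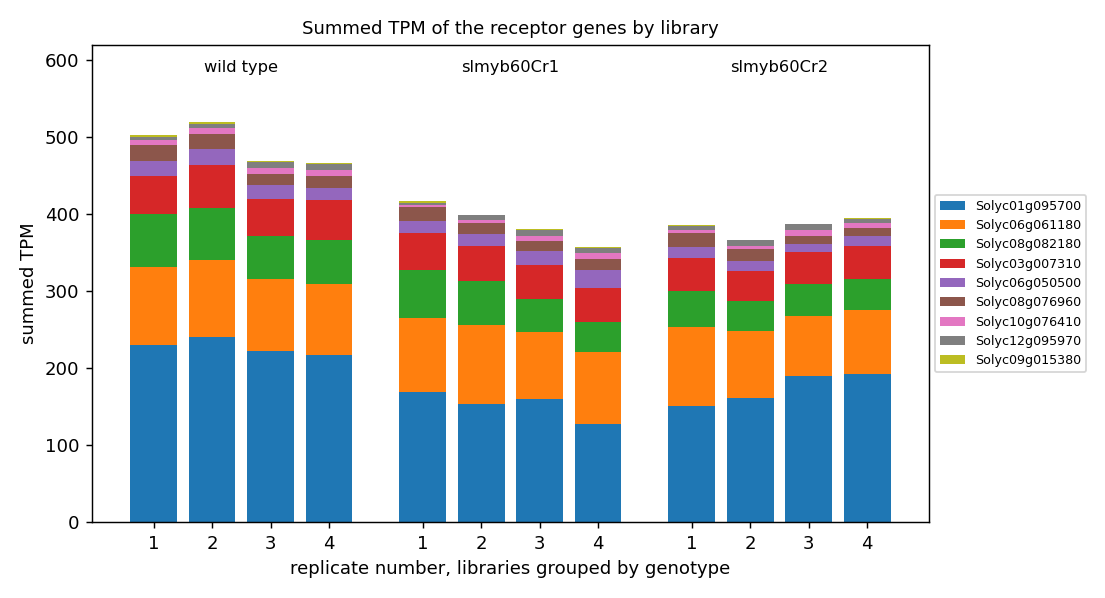
Summed TPM of the 9 receptor genes (vertical axis from 0) in each library, stacked by gene and grouped by genotype along the horizontal axis. The wild type bars stand between 466 and 519 TPM and the edited bars between 357 and 417 TPM, with the lowest block, Solyc01g095700, as the largest part of every bar.

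Each gene was compared between genotypes with limma on log2(TPM + 0.1), in 1 fit of all 12 libraries over 21218 genes, with Benjamini-Hochberg adjustment over all of them. On this scale the change of a gene of low TPM comes out too small. At the thresholds of the study's methods, an adjusted p below 0.05 and a log2 difference above 1 or below −1, 0 of the 9 receptor genes were called in either line. By that rule 0.669% of the whole table passed in *slmyb60Cr1* and 1.4% in *slmyb60Cr2*. The study's own test, DESeq2 on Salmon estimates, called more genes in each line at these thresholds. At an unadjusted p below 0.05 in limma, 3 of the 9 were lower in *slmyb60Cr1*, against 8.87% of all genes tested, and 4 in *slmyb60Cr2*, against 7.81%. By the same rule 0 of the 9 were higher in either line, against 8.26% and 15.3% of all genes.

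With the adjusted p alone, and no limit on the size, 1 of the 9 genes was lower in *slmyb60Cr1*, against 0.881% of all genes tested, and 4 of the 9 were lower in *slmyb60Cr2*, against 2.18%. No receptor gene was higher by this rule (0 in either line), against 0.806% of all genes in *slmyb60Cr1* and 5.24% in *slmyb60Cr2*, where higher calls outnumbered lower ones in the whole table. Every library of the line lay below every wild type library in 2 of the 9 genes in *slmyb60Cr1* (5.87% of all genes tested) and in 4 of the 9 in *slmyb60Cr2* (4.96%). The estimated difference was below 0 in all 9 genes in *slmyb60Cr1*, against 54.7% of all genes tested. In *slmyb60Cr2* it was below 0 in 8 of 9, against 42.6%, with Solyc12g095970 as the exception. In *slmyb60Cr1* the signs of Solyc06g061180, Solyc12g095970 and Solyc06g050500 turned in some of the alternatives, as did that of Solyc12g095970 in *slmyb60Cr2*. The median log2 difference over the 9 genes was −0.20 in *slmyb60Cr1* and −0.40 in *slmyb60Cr2*, and over all genes tested −0.022 and 0.040. The 4 wild type libraries serve both comparisons, so the shared direction is not independent between the lines.

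**Figure D3:**
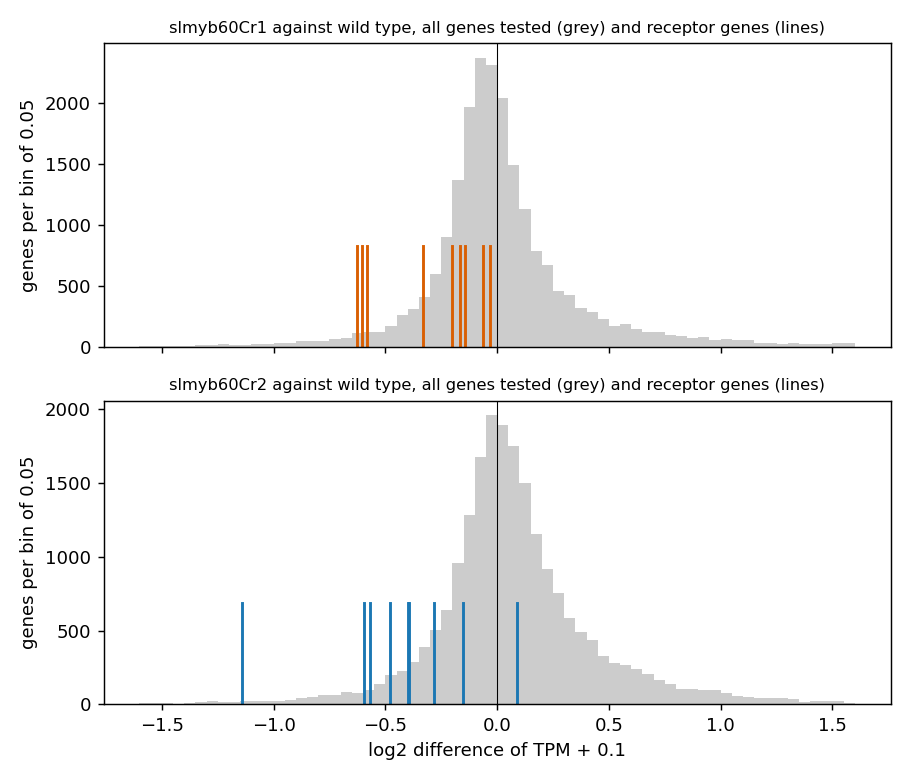
Number of genes per bin of log2 difference from the wild type for all 21218 genes tested (grey bars), with coloured lines at the 9 receptor genes, for each edited line. The receptor genes lie at or left of −0.031 in *slmyb60Cr1*, and in *slmyb60Cr2* only Solyc12g095970 (0.089) lies right of 0; genes beyond ±1.6 are not drawn.

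The most abundant receptor gene, Solyc01g095700, fell in both lines. It was at 230, 240, 222 and 217 TPM in wild type replicates 1 to 4, at 170, 154, 159 and 127 TPM in *slmyb60Cr1* and at 151, 162, 190 and 192 TPM in *slmyb60Cr2*. The edited libraries were all below the wild type libraries, and the lines overlapped with each other. The line means were 67.1% and 76.4% of the wild type mean. The log2 difference was −0.58 in *slmyb60Cr1* (standard error 0.10, 95% interval −0.80 to −0.36, limma adjusted p = 0.0182). In *slmyb60Cr2* it was −0.39 (standard error 0.10, 95% interval −0.62 to −0.17, limma adjusted p = 0.0384). An exact permutation test on TPM gave p = 0.0286 for each line (two-sided, the smallest value that 4 against 4 libraries allow). Any gene with all libraries of the line on 1 side of the wild type gets this value, so it adds nothing to the separation. The call in *slmyb60Cr1* was lost without wild type replicate 2 (limma adjusted p = 0.0582, log2 difference −0.56). In *slmyb60Cr2* it was lost without any 1 of wild type replicates 1 to 4, *slmyb60Cr1* replicates 2 and 3 or *slmyb60Cr2* replicates 1 and 2 (limma adjusted p from 0.0508 to 0.108), with log2 differences between −0.42 and −0.33.

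Solyc03g007310 had a smaller and steadier difference. Its values were 49.4, 55.4, 48.0 and 51.1 TPM in wild type replicates 1 to 4, 47.9, 45.5, 44.0 and 44.1 TPM in *slmyb60Cr1* and 42.5, 40.1, 41.6 and 43.1 TPM in *slmyb60Cr2*. The 3 genotypes formed 3 ranges that did not overlap, with the wild type highest and *slmyb60Cr2* lowest, although the gap between the lowest wild type library and the highest of *slmyb60Cr1* was small. In *slmyb60Cr2* the gene fell by 0.28 on the log2 scale (standard error 0.06, 95% interval −0.41 to −0.16, limma adjusted p = 0.0135), to 82.0% of the wild type mean. This call held when any 1 of the 12 libraries was dropped (limma adjusted p up to 0.0460). In *slmyb60Cr1* the difference of −0.17 did not pass (95% interval −0.29 to −0.046, limma adjusted p = 0.148).

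Solyc08g082180 was at 68.6, 67.8, 55.4 and 57.6 TPM in wild type replicates 1 to 4, at 61.7, 57.6, 42.8 and 38.9 TPM in *slmyb60Cr1* and at 47.7, 38.6, 40.9 and 40.4 TPM in *slmyb60Cr2*. The *slmyb60Cr2* libraries were all below the wild type, whereas replicates 1 and 2 of *slmyb60Cr1* lay within its range. It fell in *slmyb60Cr2* by 0.57 on the log2 scale (standard error 0.14, 95% interval −0.89 to −0.25, limma adjusted p = 0.0378), and the mean was 67.2% of the wild type mean. In *slmyb60Cr1* the difference was −0.33 (95% interval −0.65 to −0.015, limma adjusted p = 0.268). The call in *slmyb60Cr2* was lost without any 1 of wild type replicates 1 to 4 or *slmyb60Cr2* replicates 2, 3 and 4 (limma adjusted p from 0.0561 to 0.104), with log2 differences between −0.62 and −0.52.

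Solyc06g050500 fell in *slmyb60Cr2* and did not pass in *slmyb60Cr1*. Wild type replicates 1 to 4 were at 19.4, 21.3, 19.1 and 15.8 TPM, *slmyb60Cr1* at 15.6, 15.4, 18.1 and 23.9 TPM and *slmyb60Cr2* at 14.5, 11.9, 11.3 and 12.004 TPM. All 4 *slmyb60Cr2* libraries lay below every library of the other genotypes, and *slmyb60Cr1* surrounded the wild type range, with replicate 4 as the highest of the 12 libraries. In *slmyb60Cr2* the gene fell by 0.60 on the log2 scale (standard error 0.14, 95% interval −0.91 to −0.28, limma adjusted p = 0.0321), to 65.9% of the wild type mean. In *slmyb60Cr1* the difference was −0.062 (95% interval −0.38 to 0.26, limma adjusted p = 0.876), a sign that turned in 3 of the alternatives. The call in *slmyb60Cr2* was lost without any 1 of wild type replicates 1 to 3 or *slmyb60Cr2* replicates 2, 3 and 4 (limma adjusted p from 0.0691 to 0.0888), with log2 differences between −0.59 and −0.54.

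**Figure D4:**
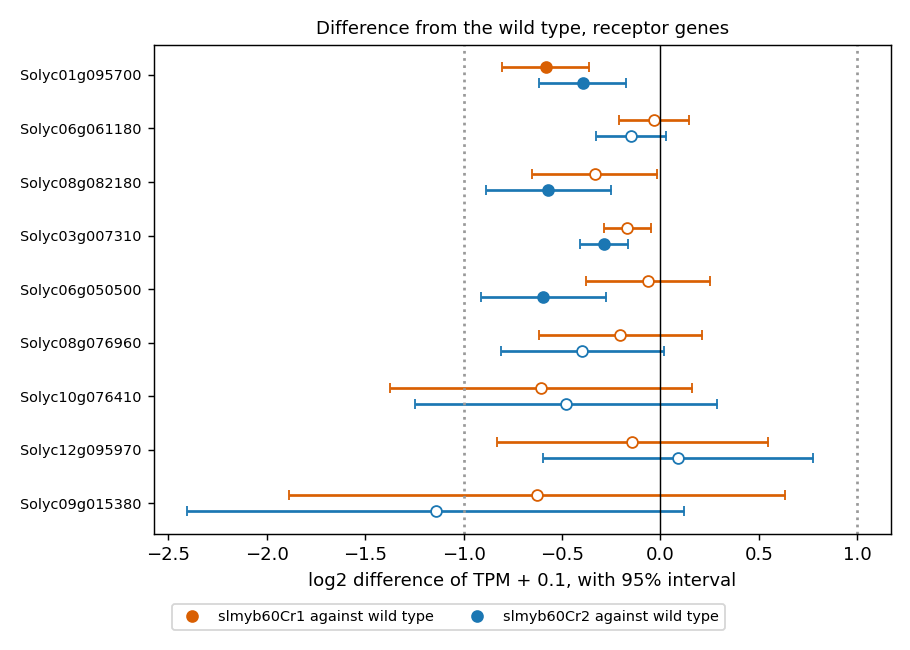
Log2 difference from the wild type for each receptor gene, ordered by wild type level, with 95% intervals from limma. Filled points passed an adjusted p of 0.05 (1 gene in *slmyb60Cr1*, 4 in *slmyb60Cr2*), open points did not, and the dotted lines mark −1 and 1, the fold threshold that no filled point reached.

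The other 5 genes passed the adjusted p threshold in neither line. Solyc06g061180, the second most abundant, was at 101, 99.6, 93.3 and 92.3 TPM in wild type replicates 1 to 4, at 95.8, 102, 87.3 and 93.5 TPM in *slmyb60Cr1* and at 102, 86.2, 77.5 and 83.9 TPM in *slmyb60Cr2*. Its 3 ranges overlapped. The log2 difference in *slmyb60Cr1* was −0.031 with a narrow 95% interval of −0.21 to 0.15 (limma adjusted p = 0.893), and in *slmyb60Cr2* −0.15 (95% interval −0.33 to 0.028, limma adjusted p = 0.302). Of the 4 abundant genes, this one thus had the smallest estimate in each line. Solyc08g076960 was at 15.3 ± 2.48 TPM in *slmyb60Cr1* and 13.6 ± 3.51 TPM in *slmyb60Cr2* (mean ± SD, n = 4 each). Its log2 differences were −0.20 (95% interval −0.62 to 0.21, limma adjusted p = 0.641) and −0.40 (95% interval −0.81 to 0.016, limma adjusted p = 0.235).

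The 3 genes with the lowest levels had the widest intervals. Solyc10g076410 was tight in the wild type at 6.40, 7.84, 6.94 and 7.40 TPM. In *slmyb60Cr1* its values of 2.15, 3.94, 6.89 and 7.90 TPM parted replicates 1 and 2 from replicates 3 and 4, and in *slmyb60Cr2*, at 4.41, 3.64, 7.05 and 5.89 TPM, replicates 1 and 2 were again the lower ones. Its log2 differences of −0.61 (95% interval −1.37 to 0.16, limma adjusted p = 0.420) and −0.48 (95% interval −1.25 to 0.29, limma adjusted p = 0.461) did not pass. The former shrank to −0.25 without *slmyb60Cr1* replicate 1, its lowest library, and to −0.27 with library quality weights. Solyc12g095970 was at 5.76 ± 1.87 TPM in *slmyb60Cr1* and 6.58 ± 1.40 TPM in *slmyb60Cr2* (mean ± SD, n = 4 each), with log2 differences of −0.14 (95% interval −0.83 to 0.55, limma adjusted p = 0.867) and 0.089 (95% interval −0.60 to 0.78, limma adjusted p = 0.904). Solyc09g015380 had the largest estimate of the family, −1.14 in *slmyb60Cr2*, beyond the fold threshold but with a 95% interval of −2.40 to 0.12 (limma adjusted p = 0.265). With a pseudocount of 1 in place of 0.1 that estimate shrank to −0.60. In *slmyb60Cr1* it was −0.63 (95% interval −1.89 to 0.63, limma adjusted p = 0.635).

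Part of the spread in these genes went with the replicate number, which the labels give without saying what it stands for. Solyc09g015380 was highest in replicate 1 of every genotype, at 2.58, 2.10 and 1.61 TPM in the wild type, *slmyb60Cr1* and *slmyb60Cr2*, and its lowest libraries were at 0.697, 0.460 and 0.312 TPM. Solyc08g076960 (20.8, 19.0 and 17.3 TPM in replicate 1) and Solyc08g082180 were also highest in replicate 1 of every genotype, a feature of 3 of the 9 receptor genes and of 11.1% of all genes tested. Solyc12g095970 had the opposite order, with replicate 1 lowest in every genotype at 4.20, 3.14 and 4.70 TPM, as in 5.17% of all genes tested. In the wild type, replicate 2 lay near replicate 1 in each of these receptor genes (2.34 TPM in Solyc09g015380). Across all genes, the deviations of the 3 replicate 1 libraries from their genotype means correlated at 0.318 to 0.443 with each other. Those of the replicate 2 libraries correlated at only −0.0467 to 0.0652. Likeness was not confined to a shared number. Differently numbered libraries correlated at −0.453 (*slmyb60Cr1* replicate 3 with *slmyb60Cr2* replicate 1) to 0.368 (wild type replicate 4 with *slmyb60Cr1* replicate 3). Each genotype holds 1 library of each number, so the fit that takes the number as a factor gives the same log2 differences. It can change only their standard errors and p-values. Whether the number acts differently between genotypes was not tested.

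**Figure D5:**
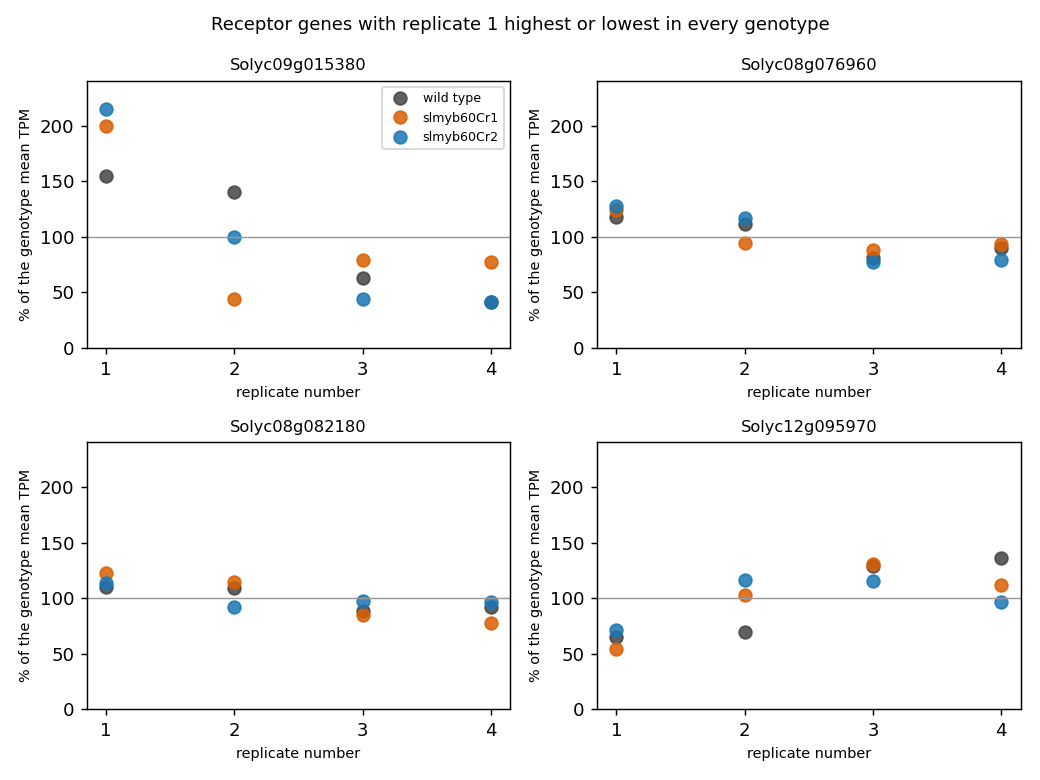
TPM of 4 receptor genes as a percentage of the genotype mean (vertical axis from 0, grey line at 100) against the replicate number, with 1 point per library coloured by genotype. Replicate 1 lies highest in all 3 genotypes for Solyc09g015380 (155% to 215%), Solyc08g076960 and Solyc08g082180, and lowest for Solyc12g095970 (54.5% to 71.3%).

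The 2 edited lines were also compared with each other. None of the receptor genes (0 of 9) passed both thresholds or the adjusted p alone, where both thresholds called 0.151% of all genes, and the adjusted p alone 0.141% as lower and 0.368% as higher in *slmyb60Cr2*. At an unadjusted p below 0.05, 1 receptor gene, Solyc06g050500, was lower in *slmyb60Cr2* than in *slmyb60Cr1* (log2 difference −0.53, 95% interval −0.85 to −0.22, limma adjusted p = 0.122). Of all genes tested, 3.2% were lower by that rule and 11.3% higher, and 0 receptor genes were higher. All 4 *slmyb60Cr2* libraries lay below all 4 *slmyb60Cr1* libraries in 2 of the 9 genes, Solyc06g050500 and Solyc03g007310 (1.52% of all genes tested). For Solyc03g007310 the log2 difference was −0.12 (95% interval −0.24 to 0.0040, limma adjusted p = 0.362). Solyc01g095700 leaned the other way, at 0.19 (95% interval −0.033 to 0.41, limma adjusted p = 0.425). The calls of Solyc03g007310, Solyc08g082180 and Solyc06g050500 in *slmyb60Cr2* alone are therefore not shown to be particular to that line.

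The most abundant receptor gene and the one with the largest estimate were also set against all others by the likeness of their pattern, the Pearson correlation of log2(TPM + 0.1) over the 12 libraries, given as a description. The gene most like Solyc01g095700 was Solyc05g052650, an acyl-transferase family gene (r = 0.946), at 5.28 TPM on average in the wild type, 0.610 TPM in *slmyb60Cr1* and 1.02 TPM in *slmyb60Cr2*. Solyc01g009430, which the sources used here give no name, came next (r = 0.941), with 133, 72.6 and 81.1 TPM. Among the receptor genes the most like it was Solyc03g007310 (r = 0.671). These libraries share the difference between genotypes, which by itself brings such correlations. For Solyc09g015380, the gene with the largest estimate, the most similar receptor gene was Solyc08g076960 (r = 0.922), which shared its high replicate 1. The genes most like it over the whole table reached r = 0.951.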

How the data were processed

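Poly(A)-enriched leaf RNA was sequenced in 12 libraries, grouped by the genotype and replicate number in the labels. The authors trimmed the reads with fastp, quantified ITAG 4.0 transcripts with Salmon (GC and sequence bias corrected) and deposited TPM, without pooling replicates. Every column sums to 1000000, so read depth is lost and DESeq2, which the authors ran on the Salmon estimates, could not be applied. Salmon may split reads between similar receptor genes, which was not checked here.

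Of 33976 genes, 21218 were kept, those reaching 0.5 TPM in 4 or more libraries, and tested on log2(TPM + 0.1) with limma 3.58.1 (intensity trend, R 4.3.3), genotype as the only factor, and Benjamini-Hochberg adjustment. All 9 receptor genes passed this filter. The code was tested on simulated data, in which 200 genes were changed by more than the fold threshold in both edited lines. Smaller differences, such as those called here by the adjusted p alone, and deviations shared between libraries were not simulated. Alternatives covered the replicate block, samples in the fit, pseudocount, filter, scaling, variance model, threshold and each library. Plots were drawn with matplotlib 3.10.9.

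Named genes are the 9 members, *SlMYB60* and the genes with the most similar pattern to the most abundant member and to the one with the largest estimate, of which few unnamed ones are printed. The members and tests were chosen with earlier results of these data known. Planned lists of phosphatases, kinases, transcription factors and ABA metabolism genes, and of tissue markers, were not used, because 0 rows of the reference gene list used here hold a Solyc identifier. The leaf label was therefore not checked by markers, and no sequences are shown.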

Additional observations from a re-analysis of the deposited data

How the results depend on the processing

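The count of receptor genes past both thresholds stayed at 0 under all alternatives in all 3 comparisons, other than when the fold threshold was dropped, which gives 1 in *slmyb60Cr1* and 4 in *slmyb60Cr2*. By the adjusted p alone, leaving out each of the 12 libraries in turn gave 0 to 1 genes in *slmyb60Cr1* and 1 to 4 in *slmyb60Cr2*. Fewer libraries are then in the fit. Same-numbered libraries deviated together in part: their correlations averaged 0.193, but only 8 of 12 were above 0.1 (range −0.0467 to 0.443). Other pairs averaged −0.0641, a value that largely follows from the first, since deviations from a genotype mean cancel within the genotype. Of the 12 libraries, 4 correlated best with their own number in both other genotypes. As the labels do not say what a number stands for and not every pair was above 0.1, the numbers were not taken as pairs. With the replicate block, 1 and 3 genes passed the adjusted p alone. In *slmyb60Cr2* Solyc08g076960 then passed (limma adjusted p = 0.0323), while Solyc01g095700 (0.0542) and Solyc06g050500 (0.0536) did not. In the whole table the block gave 210 and 373 genes past both thresholds, against 142 and 298 without it. Fitting just the pair compared gave 94 in *slmyb60Cr1*, library quality weights 364, and dropping 1 library 79 to 295. In *slmyb60Cr2* a pseudocount of 1 gave 197, the weights 422, and dropping 1 library 188 to 356. Between the lines the count of 32 became 9 with the pair alone, 52 with the block, 57 with the weights and 8 to 35 with 1 library dropped.

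Signs turned only in differences that passed no threshold. With library quality weights, the log2 difference became 0.0612 for Solyc06g050500 in *slmyb60Cr1*, −0.0906 for Solyc12g095970 in *slmyb60Cr2* and −0.33 for Solyc10g076410 between the lines, and with quantile normalization it became −0.0372 for Solyc12g095970 in *slmyb60Cr2*. With single libraries left out, Solyc06g061180 ranged from −0.0672 to 0.00696, Solyc12g095970 from −0.32 to 0.12 and Solyc06g050500 from −0.20 to 0.0108 in *slmyb60Cr1*, and Solyc12g095970 from −0.0846 to 0.26 in *slmyb60Cr2*. Between the lines, Solyc10g076410 ranged from −0.23 to 0.38 and Solyc12g095970 from −0.0311 to 0.38. The causes were not tested. The share of Solyc01g095700 in the wild type sum was 46.2% to 46.7% when any 1 wild type library was left out.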
